A study of Mus musculus with 42 samples.

Results

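The olfactory receptor genes of chromosome 2 were the protein-coding genes of the GENCODE vM21 annotation (mm10) on that chromosome whose symbol starts with Olfr, and 294 of the 21951 protein-coding genes met this rule. Each gene was placed inside or outside a lamina-associated domain (LAD) in each library by its annotated start site. LADs are the long stretches of chromatin that contact the nuclear lamina, mapped here by chromatin immunoprecipitation of lamin B1 (LMNB1) and sequencing. No measured value enters this rule, but it was chosen with earlier results of these data known.

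Olfactory receptors are G protein-coupled receptors that bind odorants in the cilia of olfactory sensory neurons, and each neuron expresses a single allele of a single receptor gene. Their genes lie side by side in large clusters that arose by duplication, and in most tissues they are packed in heterochromatin, much of it at the nuclear periphery. Their expression in these livers was not analysed here. LADs are typically long, A+T-rich and poor in active genes.

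Livers came from wild-type C57Bl/6 mice, which the growth protocol calls male and the sample labels call female. Non-synchronized (NS) mice were killed at noon on the day before food was withdrawn. The other mice were kept without chow for 24 h to entrain the circadian clock, were refed freely from circadian time 0 (CT0), and were killed at CT0, CT6, CT12, CT18, CT24 or CT30, the number being hours. There were 2 mice, replicate 1 and replicate 2, and thus 2 LAD maps at each of the 7 time points, 14 libraries in all. Mice of all groups had the same genotype, and the time points differed in fasting, feeding and clock time together, which cannot be told apart here. The maps are from pieces of whole liver, so a LAD in fewer cells and a weaker contact in all cells cannot be told apart.

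The deposited LADs have no score or read count, so depth is unknown and the spread between the 2 mice of a time point is the measure of error used here. The variation between repeated LAD calls on a library was not analysed here. The libraries held 86 to 341 LADs covering 335 to 663 Mb. All but 82 of the 2845 LAD starts fell on a grid of whole kb, whose step, the bin size of the LAD caller, ranged from 4 to 61 kb. NS replicate 1 stood apart, with the fewest LADs (86), the lowest coverage (335 Mb), the largest bins (61 kb) and only 4 LADs on chromosome 2. Each comparison between groups is therefore given with and without it. The start sites of 13 of 13 genes active in hepatocytes, among them Alb (serum albumin), Apob (a lipoprotein) and Hnf4a (a hepatocyte transcription factor), lay outside LADs in all 14 libraries. Since 83.4% of all protein-coding genes did, this says little about the tissue.

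The 294 genes formed 3 clusters, separated by at least 1 Mb between neighbouring start sites. The first cluster had 28 genes and its start sites ran from Olfr338 to Olfr368 (chr2:36373519-37326515). Being nearest the centromere, it is called the proximal cluster here. The middle cluster, the largest, had 227 genes from Olfr987 to Olfr1274-ps (chr2:85339315-90398683), at 44.9 genes per Mb. The distal cluster had 39 genes from Olfr1275 to Olfr1318 (chr2:111235286-112154198), at 42.4 genes per Mb, against 29.4 per Mb in the proximal cluster. The coding sequence lay in 1 exon in 292 of the genes and in 2 exons in the other 2, with a median coding length of 936 bp, the compact form typical of this family. Olfr1274-ps carries a pseudogene suffix in its symbol but is protein-coding in the annotation. The annotation also lists 76 Olfr pseudogenes on chromosome 2, which were counted only in an alternative.

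To show what the start sites look like along the range of LAD states, the 250 bases before the annotated start of 5 genes are printed from GRCm38.p6, 5′ to 3′ on the strand of the gene. Olfr368 (chr2:37326265-37326514, plus strand) was in a LAD in 0 libraries and Olfr987 (chr2:85339316-85339565, minus strand) in 4. Olfr1019 (chr2:85845484-85845733, minus strand), a receptor for the fox odour component TMT, was in a LAD in 9 libraries. Olfr1085 (chr2:86662020-86662269, minus strand) and Olfr1275 (chr2:111235287-111235536, minus strand) were in a LAD in 13. Capitals mark matches, on either strand, to TAATTA, a homeodomain core of the kind that Lhx2 recognises, to CCCNNGGG, the core of sites for Ebf factors, or to TATAAA. The motifs share no overlapping match in these 5 windows.
Olfr368: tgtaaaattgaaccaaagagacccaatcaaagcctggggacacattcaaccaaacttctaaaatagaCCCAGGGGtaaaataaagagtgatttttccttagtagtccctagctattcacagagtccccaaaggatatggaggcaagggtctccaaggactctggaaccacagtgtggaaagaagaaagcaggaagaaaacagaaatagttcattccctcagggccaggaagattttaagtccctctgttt
Olfr987: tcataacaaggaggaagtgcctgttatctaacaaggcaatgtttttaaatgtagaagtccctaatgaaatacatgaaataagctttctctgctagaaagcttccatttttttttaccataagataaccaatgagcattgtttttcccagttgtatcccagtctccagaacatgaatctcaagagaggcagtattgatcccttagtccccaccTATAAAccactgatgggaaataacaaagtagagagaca
Olfr1019: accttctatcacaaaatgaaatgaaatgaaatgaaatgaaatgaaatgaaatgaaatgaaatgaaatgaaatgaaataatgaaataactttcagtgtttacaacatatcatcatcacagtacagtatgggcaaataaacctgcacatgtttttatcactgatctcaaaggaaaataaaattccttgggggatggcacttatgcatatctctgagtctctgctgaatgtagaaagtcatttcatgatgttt
Olfr1085: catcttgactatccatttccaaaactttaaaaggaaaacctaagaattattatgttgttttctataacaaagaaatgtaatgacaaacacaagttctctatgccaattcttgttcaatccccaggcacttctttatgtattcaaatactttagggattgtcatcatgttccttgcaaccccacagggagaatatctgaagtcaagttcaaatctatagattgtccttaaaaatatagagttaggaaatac
Olfr1275: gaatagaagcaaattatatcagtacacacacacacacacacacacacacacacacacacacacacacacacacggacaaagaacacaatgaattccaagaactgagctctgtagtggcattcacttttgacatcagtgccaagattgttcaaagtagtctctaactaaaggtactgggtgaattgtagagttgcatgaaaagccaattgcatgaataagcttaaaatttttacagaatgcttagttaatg

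The window of Olfr368 holds 1 match to CCCNNGGG, that of Olfr987 holds 1 match to TATAAA, and the other windows hold none of these motifs. Over all 294 genes, the window was A+T-rich, with a median of 66.4% against 46.0% for 21938 protein-coding genes with a window. The median gene had 1 CpG in the window against 8 for all protein-coding genes, and 47.3% of the olfactory receptor genes had 0 against 7.58%. TAATTA was found before 29.9% of the genes against 4.99% of all protein-coding genes, TATAAA before 39.8% against 11.5%, and CCCNNGGG before 9.86% against 13.7%. A short A+T-only motif is met more often in A+T-rich sequence, and its part in these shares was not tested. By cluster, TAATTA was found before 17.9% of the genes in the proximal cluster, 30.0% in the middle cluster and 38.5% in the distal cluster. CCCNNGGG was found before 25.0% of the genes in the proximal cluster, 7.93% in the middle cluster and 10.3% in the distal cluster. A match of letters describes the window and is not a binding site.

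Most of the genes lay in LADs in most mice. The percentage of the 294 genes with the start site in a LAD had a median of 86.6% over the 14 libraries, from 0% in NS replicate 1 to 99.0% in CT18 replicate 2. Over the 13 libraries without NS replicate 1 the median was 87.8%, with 66.0% as the lowest value. The mean of these libraries was 85.0% ± 11.3 (SD, n = 13). Of the 294 genes, 167 (56.8%) were in a LAD in 13 libraries, against a background of 2.71% of all protein-coding genes in at least 13 of 14 libraries. No gene was in a LAD in all 14, since NS replicate 1 had none of them. A single gene, Olfr368, was outside LADs in all 14 libraries (0.340% of the genes), while 83.4% of all protein-coding genes were. The number of libraries with the gene in a LAD was at least 9 for 255 genes (86.7%), against 6.57% of all protein-coding genes. It was at least 5 for 282 genes (95.9%), against 9.14% of all protein-coding genes.

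The counts per mouse were as follows. In NS mice, 0 genes were in a LAD in replicate 1 (all protein-coding genes 4.01%) and 244 in replicate 2 (7.96%), so the NS mice differed by 244 genes. At CT0, 258 genes were in a LAD in replicate 1 (all protein-coding genes 5.25%) and 277 in replicate 2 (8.18%). At CT6 the mice differed by 85 genes, with 202 in replicate 1 (6.92%) and 287 in replicate 2 (9.89%). CT12 and CT18 had the highest means, and the values of these time points overlapped. At CT12, 287 genes were in a LAD in replicate 1 (8.09%) and 251 in replicate 2 (9.43%). At CT18 there were 264 in replicate 1 (9.28%) and 291 in replicate 2 (10.4%). At CT24 there were 258 in replicate 1 (8.98%) and 232 in replicate 2 (7.87%). CT30 had the lowest pair of the entrained mice, with 194 in replicate 1 (6.15%) and 205 in replicate 2 (5.58%). The percentages in parentheses are the background, the share of all protein-coding genes in LADs in the same library, and the share of olfactory receptor genes was above it in every library but NS replicate 1.

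**Figure D1:**
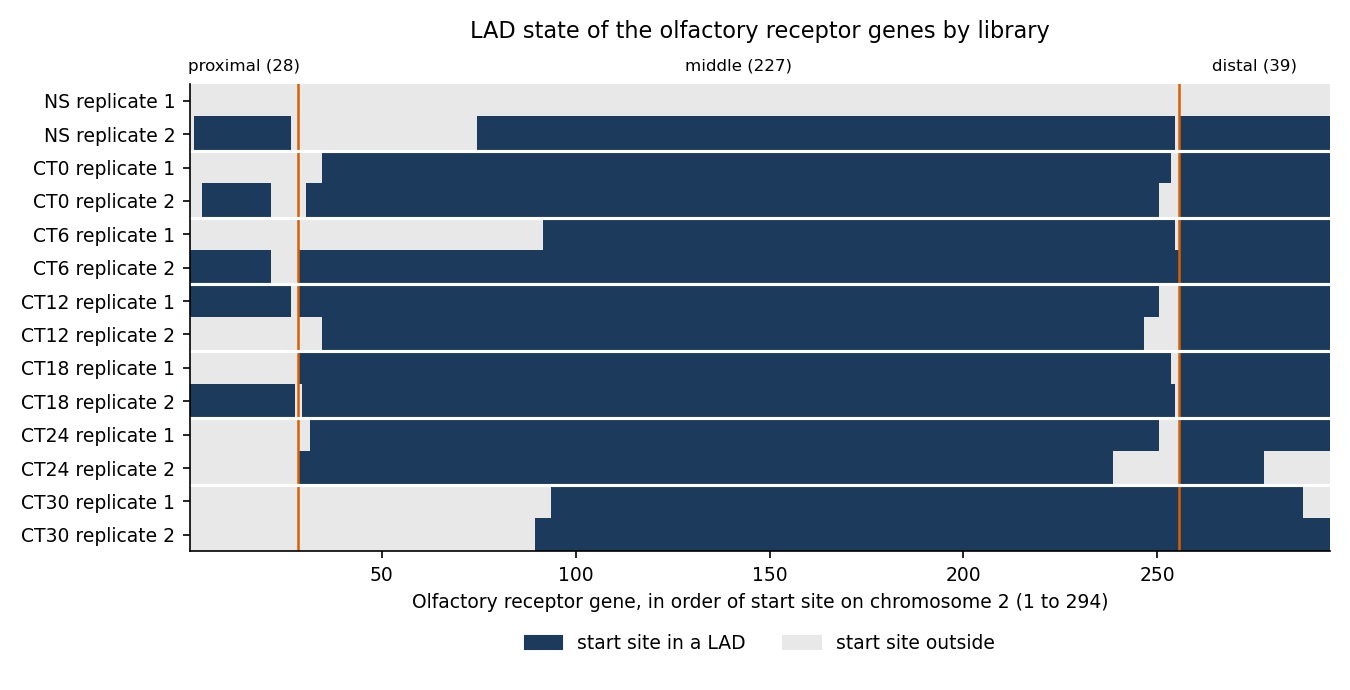
LAD state of the 294 olfactory receptor genes of chromosome 2 (x axis, in order of start site, with orange lines between the 3 clusters) in the 14 libraries (y axis), dark where the start site lay in a LAD. The proximal cluster is dark in 5 libraries, the first genes of the middle cluster are light in NS replicate 2, CT6 replicate 1 and both CT30 mice, and NS replicate 1 is light throughout.

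Each cluster was covered by a single LAD or by none. Of the 42 pairs of a library and a cluster, 31 had 1 LAD over the cluster and 0 had more than 1. Genes of a cluster thus share 1 LAD and are not independent of each other, and the LAD borders carry the differences between libraries. The middle and distal clusters had a LAD in 13 libraries each, and the proximal cluster in 5.

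In the middle cluster, a core of 145 genes from Olfr1085 to Olfr1257, whose start sites span 3.22 Mb (chr2:86662019-89878437), was in a LAD in every library but NS replicate 1. On both sides of this core the number of libraries fell stepwise towards the cluster's ends. On the 5′ side, 40 neighbouring genes from Olfr996 to Olfr1048 were in a LAD in 9 libraries, and Olfr987, the first gene, was in 4 (CT6 replicate 2, CT12 replicate 1, CT18 replicate 1 and CT24 replicate 2). On the 3′ side, 8 genes from Olfr1258 to Olfr1265 were in 12 libraries and Olfr1274-ps, the last, in 3 (CT6 replicate 2 and both CT30 mice). The most borders between neighbouring genes, 3, were found at 2 places. Between Olfr1270 (in a LAD in 11 libraries) and Olfr1506 (in 8), the LAD of CT0 replicate 2, CT12 replicate 1 and CT24 replicate 1 ended. Between Olfr1272 (in 6) and Olfr1274-ps (in 3), that of NS replicate 2, CT6 replicate 1 and CT18 replicate 2 did.

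Over the 13 libraries with a LAD over the middle cluster, its 5′ border moved more than its 3′ border. The LAD began between chr2 positions 85248001 (CT24 replicate 2) and 86645001 (CT30 replicate 1), a range of 1397 kb, and ended between 89892000 (CT24 replicate 2) and 90458000 (CT30 replicate 1), a range of 566 kb. Both ranges exceed the bin sizes of these 13 libraries, the largest of which was 47 kb. The starts fell into 2 sets. In 9 libraries the LAD began from 91.3 kb before to 231 kb after the first gene, and in the other 4 it began well inside the cluster. Its distance after the first gene was 909 kb in NS replicate 2, 1251 kb in CT6 replicate 1, 1306 kb in CT30 replicate 1 and 1187 kb in CT30 replicate 2. CT30 was the only time point at which both mice had the late start, and at CT6 the mice differed. The wider 5′ range came from the 4 libraries with the late start. Among the other 9, the LAD ended between 89892000 (CT24 replicate 2) and 90442000 (CT6 replicate 2), and the 3′ border had the wider range.

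The LADs with the late start reached far at the other end. They ended at 90340000 in NS replicate 2, 90335000 in CT6 replicate 1, 90458000 in CT30 replicate 1 and 90436000 in CT30 replicate 2, each beyond the median end of 90288000 over 13 libraries, as did the LADs of CT6 replicate 2 and CT18 replicate 2. The protein-coding gene Gm13769, which lies between olfactory receptor genes near this end (chr2:90322200-90326360), was in a LAD in these 4 libraries and in CT6 replicate 2. The LAD over the cluster measured 3.75 to 4.09 Mb in the 4 libraries and 4.48 to 5.18 Mb in the other 9. The 4 libraries had a genome-wide LAD coverage of 392 to 527 Mb and bins of 4 to 46 kb. The other 9 had 424 to 663 Mb and 4 to 47 kb. Coverage of the sets overlapped only through CT0 replicate 1 (424 Mb), and the next lowest of the 9 was CT24 replicate 2 (540 Mb). This division was seen in the data, so no test is given for it, and the part of coverage in it was not tested.

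**Figure D2:**
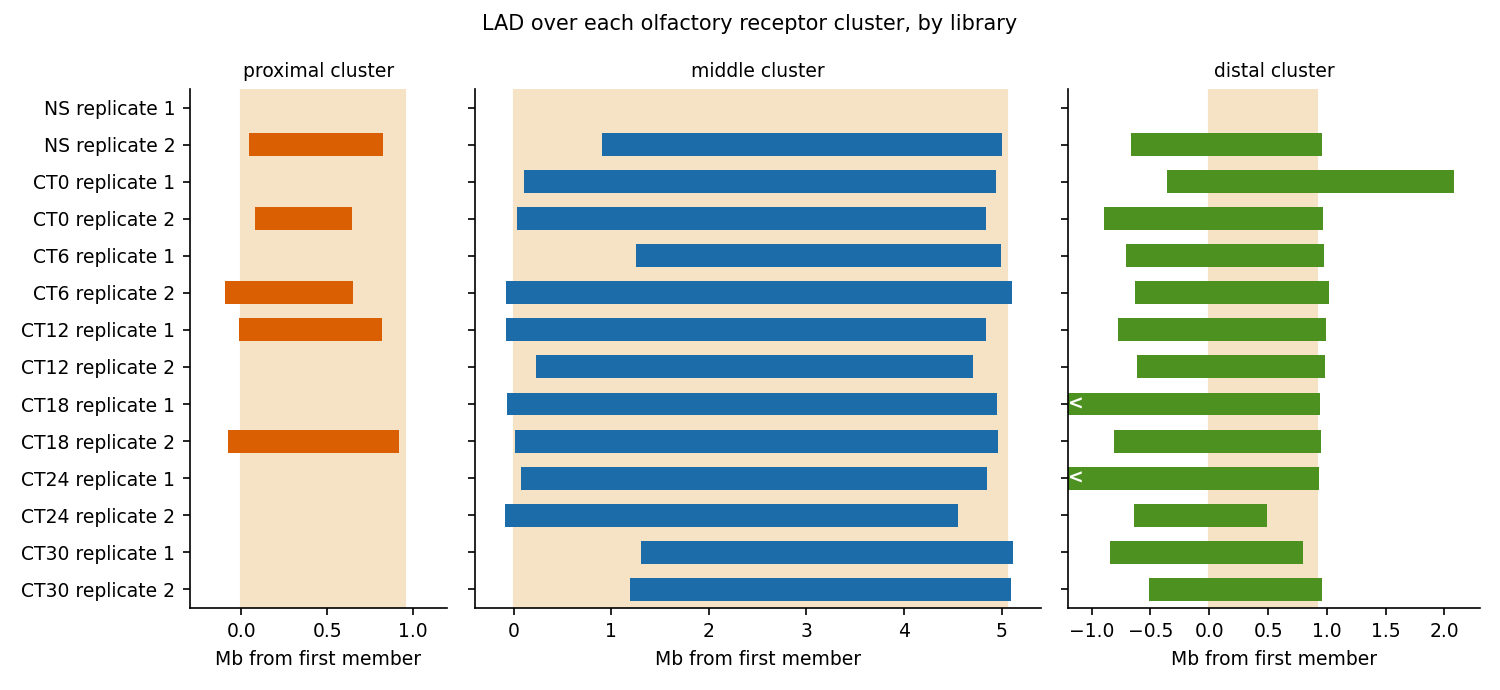
LAD over each of the 3 clusters (bars, 1 per library) in Mb from the start site of the cluster's first gene, with the span from the first to the last start site shaded. A < marks a LAD that begins before the left edge of the panel, and in 4 libraries the LAD over the middle cluster begins 909 to 1306 kb after the first gene.

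Olfr1019 lies in the stretch that this border exposed. It was in a LAD in 9 of 14 libraries, which were both mice at CT0, CT12, CT18 and CT24 and replicate 2 at CT6. It was outside in both NS mice, in CT6 replicate 1 and in both CT30 mice. In all, 55 genes were in a LAD in both mice at CT0, CT12, CT18 and CT24 and in neither mouse at CT30, and they run from Olfr996 to Olfr1076 in the middle cluster. This pattern was met by 81 of all protein-coding genes (0.369%), these 55 included. The 55 genes share 1 LAD border and count as 1 event.

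The proximal cluster was the least often in a LAD. It had a LAD in NS replicate 2 (25 of 28 genes), CT0 replicate 2 (18), CT6 replicate 2 (21), CT12 replicate 1 (26) and CT18 replicate 2 (27), and in none of the other 9 libraries, which included all 4 mice of CT24 and CT30. At 5 time points 1 mouse had the LAD and the other did not. Its first gene, Olfr338, was in a LAD in 3 libraries, 18 genes from Olfr341 to Olfr358 were in 5, and 5 genes from Olfr360 to Olfr365 were in 3. Olfr366 was in a LAD only in CT18 replicate 2, and Olfr368, the last, in 0. Between Olfr358 and Olfr360 the LAD ended in 2 libraries, CT0 replicate 2 and CT6 replicate 2. All 5 LADs were below 1 Mb in length, from 0.564 to 0.996 Mb.

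Library measures moved with the LAD over the proximal cluster. The 5 libraries with this LAD had bins of 4 to 11 kb (median 5) and 265 to 341 LADs, and the 9 without it had bins of 10 to 61 kb (median 31) and 86 to 243 LADs. LAD numbers of the sets did not overlap, and bin sizes overlapped only through CT6 replicate 2 (11 kb) and CT12 replicate 2 (10 kb). By the replicate of the labels, the LAD was present in 1 of 7 replicate 1 libraries and 4 of 7 replicate 2 libraries. The names of the deposited maps hold another number for each mouse, of unstated meaning, and by this number the LAD was present in 0 of 6 mice numbered 1, 2 of 5 numbered 2 and 3 of 3 numbered 3. The part of these measures in the state of the proximal cluster was not tested.

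The distal cluster was in a LAD from its first gene in 13 libraries. Of its 39 genes, all 39 were in the LAD in 11 libraries, 32 in CT30 replicate 1 and 22 in CT24 replicate 2, where the LAD ended between Olfr1299 and Olfr1301. The LAD began at least 362 kb before the first gene in each of the 13 libraries, and 4094 kb before it in CT18 replicate 1 and 5185 kb before it in CT24 replicate 1. At its 3′ end it stopped from 428 kb before to 1163 kb after the last gene, Olfr1318, with a median of 39.8 kb after it. The LAD thus ran through the 5′ edge of the distal cluster in every library that had one, whereas over the middle cluster it began within 231 kb of the first gene in 9 libraries and further inside in 4.

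Genes next to the clusters were placed by their start sites in the same way. For Ptprj the start site (chr2:90580647) is the far end of the gene, whose body begins at 90429754. The LAD over the middle cluster ended inside this body in CT6 replicate 2 (90442000), CT30 replicate 1 (90458000) and CT30 replicate 2 (90436000). Ptgs1 (a cyclooxygenase) before the proximal cluster, Pdcl (a phosducin-like protein) after it, Lrrc55 (a potassium channel subunit) before the middle cluster and Ptprj (a receptor tyrosine phosphatase) after it were in a LAD in 0 of 14 libraries. Before the distal cluster, 4930430A15Rik was in a LAD in 13 libraries, and Lpcat4 (a lysophospholipid acyltransferase) after it was in a LAD in 2, CT0 replicate 1 and CT6 replicate 2. The 7 other protein-coding genes that lie among the olfactory receptor genes were all in the middle cluster. Pramel7 and Pramel6, which are expressed in early embryos, were in a LAD in 13 libraries, as were Gm13723, Gm13757, Gm13762 and the olfactory receptor genes of the core around them. 4833423E24Rik was in 8, between Olfr995 (7) and Olfr996 (9), and Gm13769 was in 5, between Olfr1272 (6) and Olfr1274-ps (3).

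A+T content was higher over the clusters than over the chromosome. It was 60.9% over the proximal cluster, 62.9% over the middle cluster and 62.4% over the distal cluster, against 57.9% over the whole of chromosome 2. Of 1783 windows of 100 kb on the chromosome, 28.4%, 8.92% and 13.9% were at or above these values. The cluster values are means over longer stretches than a window, of 0.953, 5.06 and 0.919 Mb. These percentages thus do not compare stretches of like length. The 0.5 Mb before the proximal cluster had 54.8% and the 0.5 Mb before the middle cluster 55.1%, whereas the 0.5 Mb before the distal cluster had 63.4%. The LAD over the distal cluster included at least 362 kb of that stretch in 13 libraries. Within the middle cluster, A+T content was 63.2% in the core of 145 genes and 63.2% in the stretch before it that changed between libraries. It was 60.0% after the core. These are descriptions of the reference sequence with no test.

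Genes that act with the receptors were outside LADs. A list of 20 genes of the olfactory pathway comprised signal transduction (such as Adcy3, the adenylyl cyclase of the cilia, and Cnga2, the cyclic nucleotide-gated channel), receptor export (Rtp1 and Rtp2), the marker Omp, and regulators of receptor choice (Lhx2, Ldb1, Ebf1, Kdm1a, Atf5 and the lamin B receptor Lbr). The start sites of 0 of the 20 lay in a LAD in any of the 14 libraries, where 83.4% of all protein-coding genes were likewise in none.

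The share in LADs was next compared with that of other genes within each library, in tests chosen with earlier results of these data known. It exceeded that of the other 21657 protein-coding genes by 72.2 percentage points on average (SD 24.1, n = 14 libraries), with a higher share in 13 of 14 libraries (exact two-sided sign-flip permutation test, P = 0.000244; adjusted over 5 comparisons, 0.000305). Without NS replicate 1 the difference was 78.1 points (P = 0.000244, same exact permutation test). Against the 1549 other protein-coding genes of chromosome 2, of which a median of 2.84% lay in LADs, it was 76.1 points (SD 24.8, higher in 13 of 14, P = 0.000244, exact permutation test, adjusted 0.000305). It was 82.1 points without NS replicate 1. The smallest P that these sign changes allow is 0.000122.

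Olfactory receptor genes of other chromosomes were in LADs less often. The 244 genes of chromosome 7 were in LADs at a median of 59.0%, from 3.28% to 74.6% over the libraries. The difference in favour of chromosome 2 averaged 33.9 points (SD 23.3, n = 14) and was positive in 13 of 14 libraries (exact sign-flip permutation test, P = 0.000244; adjusted 0.000305), or 36.7 points without NS replicate 1. The difference was far from even between libraries, with a median of 26.3 points. It was 84.5 points in CT0 replicate 1, where 3.28% of the chromosome 7 genes were in LADs. In NS replicate 2, where 64.3% were, it was 18.6 points. In CT24 replicate 2, where 68.0% were, it was 10.9 points, and in NS replicate 1 it was -3.28 points. It was 62.6 points in CT6 replicate 1, 58.6 in CT30 replicate 1 and 48.4 in CT30 replicate 2. These libraries and CT0 replicate 1 had a LAD coverage of 392 to 495 Mb. Every other library but NS replicate 1 (335 Mb) had at least 526.5 Mb, and the part of coverage was not tested. The 590 genes of the other autosomes had a median of 46.3%, from 8.31% to 53.6%, and the difference was 40.4 points (SD 16.1, higher in 13 of 14, exact permutation P = 0.000244, adjusted 0.000305), or 44.1 without NS replicate 1. Genes of a cluster share LADs, so each of these groups rests on few LADs per library, and the test is over libraries and not over genes.

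**Figure D3:**
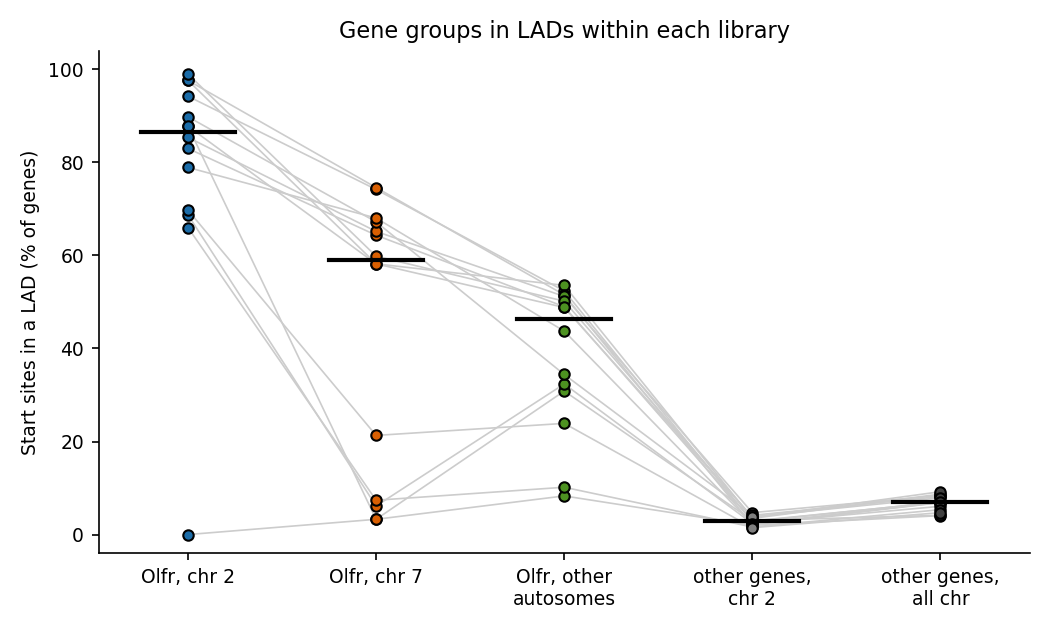
Percentage of genes with the start site in a LAD (y axis) for the olfactory receptor genes of chromosome 2, those of chromosome 7 and of the other autosomes, and the other protein-coding genes of chromosome 2 and of all chromosomes. Points are the 14 libraries, grey lines join the values of 1 library and black bars are medians (86.6%, 59.0%, 46.3%, 2.84% and 6.93%).

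Between clusters, the share of genes in LADs was higher in the middle cluster than in the other 2 clusters together by 19.4 points (SD 20.8, n = 14). It was higher in 12 of 14 libraries (exact sign-flip permutation test, P = 0.00488, adjusted over the same 5 comparisons 0.00488). It was equal in NS replicate 1, where both were 0, and lower by 16.2 points in NS replicate 2, whose LAD over the proximal cluster held 25 of 28 genes. Without NS replicate 1 the difference was 20.9 points. With LADs of at least 1 Mb only, which leaves the proximal cluster without any LAD, it was 31.9 points and positive in 13 of 14. The other clusters were unlike each other, with a median of 100% for the distal cluster and of 0% for the proximal cluster. The middle cluster had a median of 94.9%. By median it was thus above the proximal cluster but not above the distal cluster.

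The time course asked whether the share in LADs changed between CTs. The mean share in LADs was 91.0% ± 4.57 at CT0 and 83.2% ± 20.4 at CT6 (SD, n = 2 mice each). It was 91.5% ± 8.66 for CT12 mice and 94.4% ± 6.49 for CT18 mice, and then 83.3% ± 6.25 and 67.9% ± 2.65 in the mice of CT24 and CT30. Both CT30 mice were below all mice of CT0, CT12, CT18 and CT24, while CT6 replicate 1 (68.7%) lay between them (66.0% and 69.7%). The test did not show a difference between CTs against the spread between mice (F = 1.86, P = 0.253, exact permutation test over 10395 divisions of 12 libraries into 6 pairs, adjusted over 4 comparisons 0.548). The value rested on the pair of CT6 mice, whose spread (SD 20.4) was the widest of the CTs. A time point left with 1 mouse adds no spread between mice to F. Leaving out either CT6 mouse thus takes this spread out of F, and a higher F then does not show a change with time. Without CT6 replicate 2, F was 6.42 (P = 0.0395, exact permutation test, unadjusted), and without CT6 replicate 1 it was 5.72 (P = 0.0568, exact permutation test), whereas it was 0.901 without CT30 replicate 1 and 1.14 without CT30 replicate 2. By cluster, as alternatives chosen after seeing the data, F was 2.93 for the middle cluster (exact permutation P = 0.246), 0.420 for the proximal cluster and 0.859 for the distal cluster.

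**Figure D4:**
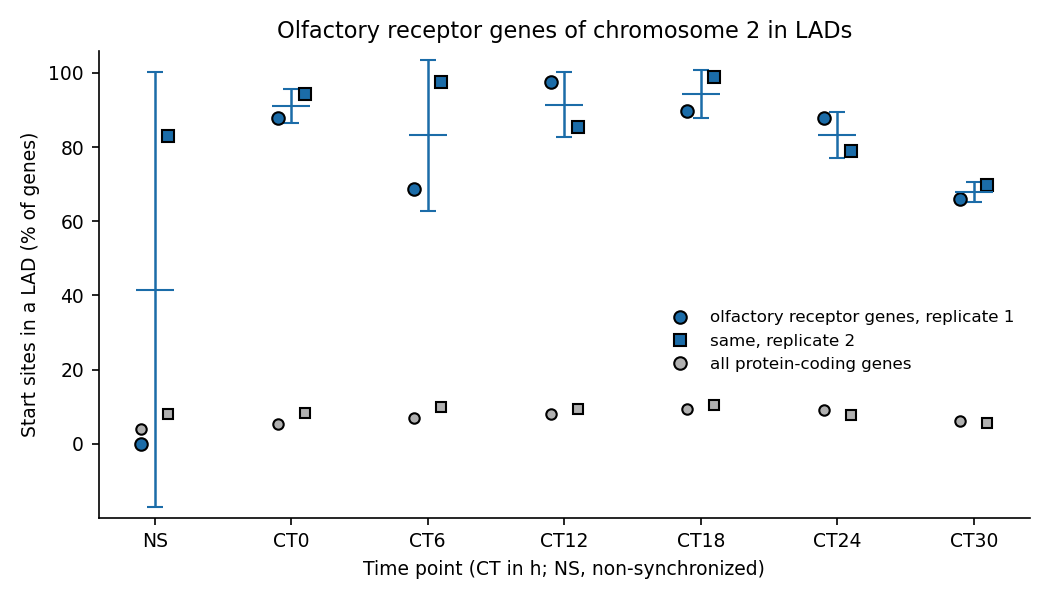
Percentage of the 294 olfactory receptor genes of chromosome 2 (blue) and of all protein-coding genes (grey) with the start site in a LAD, by time point. Circles are replicate 1, squares replicate 2, and bars the mean ± SD (n = 2) of the olfactory receptor genes, which were lowest among the CTs at CT30 (67.9 ± 2.65).

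Measured as base pairs from the first to the last start site of each cluster, LADs covered 65.7% (CT30 replicate 1) to 97.9% (CT18 replicate 2) in the 12 CT libraries. From CT0 to CT30 the means of the 6 time points were, in order, 86.9%, 81.5%, 86.4%, 91.3%, 77.4% and 67.4%. A difference between CTs was again not shown (F = 1.22, exact permutation P = 0.411, adjusted 0.548), and F was 1.85 with LADs of at least 1 Mb only (exact permutation P = 0.273). Without CT6 replicate 1 or replicate 2, F was 2.90 or 2.96, and without CT30 replicate 1 or replicate 2 it was 0.633 or 0.787.

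Entrainment was addressed by CT0 against NS. The share of genes in LADs was 91.0% ± 4.57 at CT0 and 41.5% ± 58.7 in NS mice (SD, n = 2 each), a difference of 49.5 points (exact permutation test, P = 0.333, adjusted 0.548). With 2 mice against 2, 0.333 is the smallest P that can be reached. The difference rested on NS replicate 1, in which 0 genes were in a LAD. Without this mouse it was 7.99 points (P = 0.667, exact permutation test), and without NS replicate 2 it was 91.0 points. In base pairs the difference was 45.1 points (exact permutation P = 0.667, adjusted 0.667) and 3.27 points without NS replicate 1. For the proximal cluster alone it ran the other way, at -12.5 points.

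LADs found in both mice of a time point, the intersect, held 0 of the 294 genes for NS (all protein-coding genes 2.35%), 255 for CT0 (3.72%), 202 for CT6 (5.89%), 251 for CT12 (7.11%), 263 for CT18 (7.38%), 229 for CT24 (6.52%) and 194 for CT30 (4.41%). The background was likewise lowest for NS, and was lower at CT30 than from CT6 to CT24. The proximal cluster had 0 genes in the intersect at each of the 7 time points, because the mice of a pair were never both in a LAD there. The genes that were in a LAD in 1 mouse of a pair numbered 244 for NS, against 7.28% of all protein-coding genes. With this background in parentheses, they numbered 25 for CT0 (5.99%), 85 for CT6 (5.02%) and 36 for CT12 (3.29%). For CT18 there were 29 (4.92%), for CT24 32 (3.81%) and for CT30 11 (2.91%). Over the 6 CTs, 167 of the 294 genes (56.8%) were in the intersect throughout, against 1.93% of all protein-coding genes. In none of the intersects were 29 genes (9.86%), against 90.1% of all protein-coding genes. In 168 of the 294 genes the mice of a pair had the same state at every CT. The background for this was 86.1% of all protein-coding genes, most of which were in no LAD.

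The share of these genes in LADs varied with measures of the whole library. It was higher in libraries with more LAD coverage (Pearson r = 0.757, permutation P = 0.00035, Spearman rho = 0.771, permutation P = 0.00173, n = 14, adjusted over 2 relations 0.0007 and 0.00346). Without the 2 libraries farthest from the median coverage, NS replicate 1 and CT30 replicate 2, r was 0.670 (permutation P = 0.018). In replicate 1 alone r was 0.744, in replicate 2 alone 0.886, in the 12 CT libraries 0.733, and with coverage counted outside chromosome 2 it was 0.753. It was lower in libraries with larger bins (on log2 bin size, r = -0.64, permutation P = 0.00118, rho = -0.63, permutation P = 0.0172, n = 14, adjusted 0.00118 and 0.0172). Without the 2 libraries farthest from the median bin size, r was -0.69 (permutation P = 0.00242), and in the 12 CT libraries, chosen after seeing the data, it was -0.77. Within replicate 1 (r = -0.66, exact permutation P = 0.125, n = 7) and within replicate 2 (r = -0.69, exact permutation P = 0.0825, n = 7) the relation to bin size did not pass the threshold. Coverage and bin size are measures of the same libraries, and the parts of coverage, bin size, time point and mouse cannot be told apart.

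**Figure D5:**
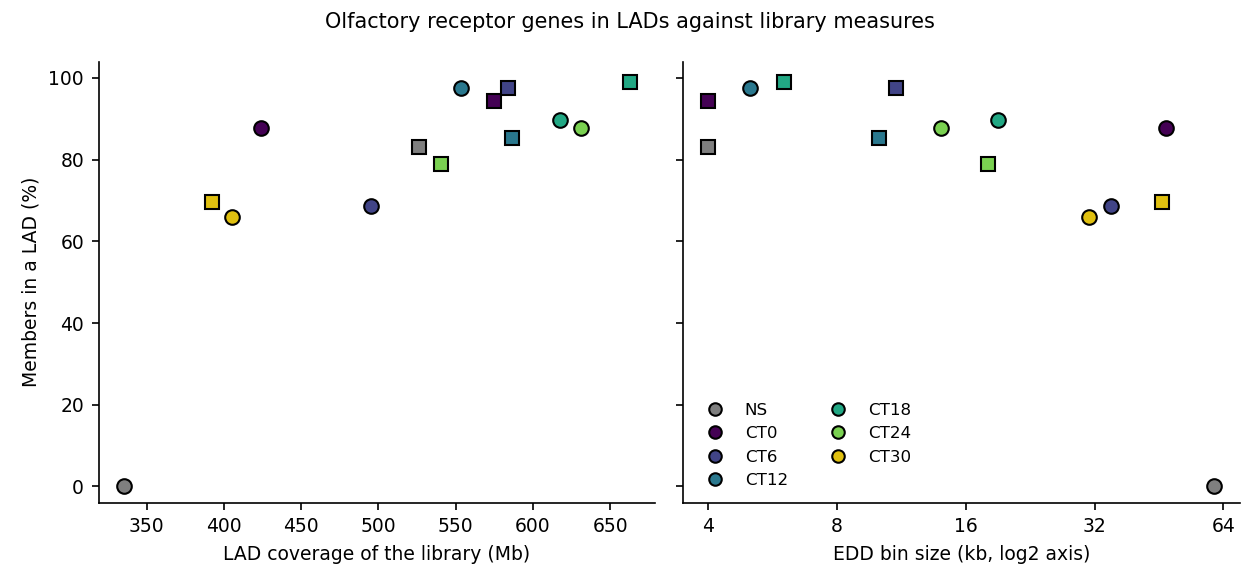
Percentage of the 294 olfactory receptor genes in a LAD (y axis) against the LAD coverage of the library (left, Mb) and the bin size of the LAD caller (right, kb, log2 axis). Each point is a library, coloured by time point, with circles for replicate 1 and squares for replicate 2, and r was 0.757 for coverage and -0.64 for log2 bin size (n = 14).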

How the data were processed

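LMNB1 ChIP-seq LAD maps of 14 mouse livers were used. The deposited files give, for 2845 LADs, mm10 start and end positions in bp, with no score, count or depth. The authors had mapped reads with Bowtie2 (2.25.0 in the submitters' notes), marked and removed duplicates (Picard), matched the depth of ChIP and input chromosome by chromosome, and called LADs per mouse with Enriched Domain Detector (EDD), using the average settings of 10 runs. Finer bins can resolve shorter LADs. Bin size was taken as the largest number of kb dividing the LAD starts, without the 82 starts that lie off whole kb. Inputs and RNA-seq were not analysed here.

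Starts were converted to 1-based positions, and 0 LADs ended beyond a GRCm38.p6 chromosome. Scripts used Python 3.11.15, NumPy 2.4.6, SciPy 1.17.1 and Matplotlib 3.10.9, and were tested on simulated data. A gene was in a LAD when its GENCODE vM21 start site was. Percentages per library were compared by exact permutation tests (threshold 0.05), relations by 100000 resamples, and P values were adjusted by Benjamini-Hochberg within each family of comparisons. Groups follow the labels, which do not state that a replicate number pairs mice. Alternatives were the start codon or gene body as position, LADs of at least 1 Mb, LADs shortened by 50 kb, pseudogenes counted along, a cluster gap of 0.5 Mb, means per time point, leaving out each library and a replicate block.

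The genes, lists and tests were chosen with earlier results of these data known. Named were the first and last gene of each cluster, the genes beside the places with most borders in a cluster, up to 10 genes in the fewest LADs, the first and last gene in the most, neighbouring other genes and Olfr1019. The windows printed were picked from these after their LAD states were seen.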

Additional observations from a re-analysis of the deposited data

How the results depend on the processing

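Of 183 alternative values, 172 kept their side of the threshold and, where a value has a sign, their direction. Their size could change, as for CT0 against NS, at 7.99 points without NS replicate 1. The alternatives of CT0 against NS had too few mice to pass the threshold at all. The 7 alternative counts of genes per time point moved. For the proximal cluster alone, chosen after seeing the data, the difference of CT0 and NS reversed to -12.5 points. The relation to bin size did not pass the threshold within replicate 1 (r = -0.66, exact permutation P = 0.125) or within replicate 2 (r = -0.69, exact permutation P = 0.0825), where fewer libraries entered. Genes in a LAD in either mouse, in place of both, numbered 244 for NS, 280 for CT0, 287 for CT6, 287 for CT12, 292 for CT18, 261 for CT24 and 205 for CT30. Leaving out each library in turn gave an F between CTs of 0.901 to 6.42, and only without CT6 replicate 2 did it pass the threshold (exact permutation P = 0.0395). Without that mouse the spread between the CT6 mice no longer enters F, and the cause of that spread was not tested. Same-numbered mice of different time points did not deviate together throughout, since the correlation of their deviations was over 0.1 in 7 of 21 pairs of time points (-0.11 to 0.45). With the replicate block F was 1.72 for genes (exact permutation P = 0.278) and 1.11 for base pairs (exact permutation P = 0.461), so these calls did not change. The differences of CT0 and NS with the block were 49.5 and 45.1 points (exact permutation P = 0.5 for both). The smallest P that this test allows is 0.5, so it could not pass the threshold and says nothing about the block. The LAD files hold no score, so no stricter threshold could be applied, and borders are placed no more finely than the bin size of each library, 4 to 61 kb.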
